A study of Drosophila melanogaster with 2 samples.

Results

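The 10 genes described here, of 13968 protein-coding genes on the named chromosome arms of the fly, were *EcR*, *usp*, *Eip74EF*, *Eip75B*, *Eip78C*, *Hr4*, *Hr38*, *Hr39*, *ftz-f1* and *Hnf4*, which encode the ecdysone receptor, early ecdysone response factors and other nuclear receptors. They were chosen by name with results of these data known, after the number of peaks at *Hr4* had been seen, so the peak counts below describe the genes and were not tested. A peak was assigned to a gene when its summit lay in the gene body or within 10 kb of it, or when that gene had the nearest protein-coding start. By this rule 17 of the 1969 peaks of the larger list over both replicates were assigned to these genes.

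The study mapped the chromatin binding of Rough, a homeodomain transcription factor known for its role in photoreceptor patterning in the eye, by chromatin immunoprecipitation and sequencing. Chromatin came from whole *Drosophila melanogaster* embryos aged 0 to 24 h, of the strain ro-GFP, which carries a transgenic Rough-eGFP fusion and an insertion targeting *ro*. It was sheared by sonication to fragments of 200 to 800 bp and precipitated with an antibody against GFP. There were 2 biological replicates in 1 group, with no untreated, input or mock sample analysed here, so the only spread available is that between these replicates. All cell types and embryonic ages were mixed in each sample, and therefore binding in more cells and stronger binding in a few cells cannot be told apart.

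Ecdysone is the steroid hormone that times moulting and metamorphosis in insects, and pulses of it also accompany embryonic development. It binds EcR, which acts as a heterodimer with the RXR homologue Ultraspiracle, and the liganded receptor switches on a small set of early genes, many of which encode transcription factors that act on later ones. Several of these factors are themselves nuclear receptors, proteins with a zinc finger DNA-binding domain and a ligand-binding domain.

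The windows below give the DNA under 6 of the peaks and span 50 bp on each side of the summit, on the plus strand of the dm6 (Release 6) assembly, written 5′ to 3′. The first 5 are shown because they lie under the member peaks that were present in the lists of both replicates, and the last because it lies under the member peak at *Hr4* that was strongest in the list of replicate 1. Capitals mark TAAT on either strand, the core of many homeodomain sites, and TAATTA, which contains it. The nuclear receptor hexamer AGGTCA, searched on both strands too, does not occur in these windows.

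usp upstream peak, chrX:2050229-2050329: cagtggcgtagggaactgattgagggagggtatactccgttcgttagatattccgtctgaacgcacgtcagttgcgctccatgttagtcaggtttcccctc
Hr4 strongest peak, chrX:1963878-1963978: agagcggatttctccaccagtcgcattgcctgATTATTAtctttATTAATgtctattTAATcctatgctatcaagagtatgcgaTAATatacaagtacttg
Hr4 second shared peak, chrX:1951884-1951984: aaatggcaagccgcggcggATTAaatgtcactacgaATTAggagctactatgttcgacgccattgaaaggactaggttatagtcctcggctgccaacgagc
ftz-f1 peak, chr3L:18769466-18769566: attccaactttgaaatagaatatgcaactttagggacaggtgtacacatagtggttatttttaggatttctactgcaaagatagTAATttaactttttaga
Hnf4 promoter peak, chr2L:8691533-8691633: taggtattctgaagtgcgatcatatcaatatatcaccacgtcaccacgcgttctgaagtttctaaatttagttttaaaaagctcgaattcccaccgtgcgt
Hr4 most upstream peak, chrX:1947679-1947779: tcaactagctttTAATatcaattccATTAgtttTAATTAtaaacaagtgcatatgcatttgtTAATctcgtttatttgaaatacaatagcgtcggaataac

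The windows at *usp* and at the *Hnf4* promoter held no TAAT, whereas the strongest *Hr4* window held 6 overlapping or separate copies and the most upstream *Hr4* window held 5. Over all 17 member windows, 10 held TAAT, against 76.4% of the 1883 windows of the whole list on the named arms. TAATTA was found in 3 of 17 member windows, against 10.3% of all windows. They were the most upstream *Hr4* window and those under the peaks nearest to the starts of *PIG-K* and *raw*, outside the member genes and described below. AGGTCA was found in 1 member window, at *Eip74EF*, against 1.28% of all windows. The A and T content of the member windows was 59.5% ± 10.9 (SD, n = 17), and that of all windows was 65.6% ± 10.8 (SD, n = 1883). A word match here is a description of the letters in the window and was not tested.

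Of the 10 genes, 7 had at least 1 peak in the larger list, called the optimal list from here on, against a background of 36.0% of all protein-coding genes. Of the 9 members of 20 kb or longer, 6 had a peak, and among all genes of that length, a background chosen after seeing the data, the share was 49.4%. In the conservative list, which holds 1627 peaks over both replicates, 6 members had a peak against 31.9% of genes. In the list of replicate 1 (1484 peaks) 5 members had a peak against 28.7% of genes, and in that of replicate 2 (1113 peaks) 6 members had one against 25.8% of genes. Because the genes were selected on this measure, nothing is read from the difference to the background. The lists hold no read totals, so the sequencing depth behind them is unknown.

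*Hr4*, an orphan nuclear receptor that in prepupae represses early ecdysone genes and activates *ftz-f1*, held 7 of the 17 peaks. The gene spans chrX:1941940-2007956 on the plus strand, 66.0 kb, and has 2 annotated starts, at 1941940 (7 transcripts) and at 1992300 (transcripts Hr4-RE and Hr4-RF). Among all protein-coding genes, 11 had 7 peaks or more by the same rule, 8 of them 20 kb or longer. Of the 7 peaks, 6 had their summit inside the gene, all in introns between the upstream and the downstream start, and 8 genes in all had as many peaks in the body or more. No summit lay within 500 bp of an *Hr4* start.

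The signal value, the authors' measure of peak strength, is comparable only within a list, whose median was 102 in the optimal list, 69.8 for replicate 1 and 65.7 for replicate 2. The strongest *Hr4* peak, at chrX:1963847-1964017 and 22.0 kb from the upstream start, had a signal of 231 and rank 224 of 1969. It was listed in both replicates, with 117 in replicate 1 and 101.2 in replicate 2. The peak at chrX:1951744-1952123, 9.99 kb from the start, had a signal of 141 (rank 557) and was the only other *Hr4* peak listed in both replicates, at 68.3 and 87.1. In each replicate list both peaks were close to or above the list's median, the stronger at rank 288 and the weaker at rank 767 of 1484 in replicate 1, and at rank 232 and 318 of 1113 in replicate 2.

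The other *Hr4* peaks rested on 1 replicate list or on neither. The peak nearest the upstream start, at chrX:1947539-1947918 and 5.79 kb into the gene, had a signal of 171 (rank 384). Its value in replicate 1 was 131, the highest at *Hr4* in that list. Replicate 2 held it only as a candidate of 37.9, at rank 1908 of 121684 in its ranked list. The peak 1166 bp downstream of the second shared peak was instead listed in replicate 2 only, at 83.0. It lay at chrX:1952910-1953289 and had 95.8 in the optimal list (rank 1095). Its replicate 1 candidate, at 16.3, stood far lower in its ranked list, at rank 30667 of 93400. This peak was also missing from the conservative list.

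The weaker intronic peaks lay farther into the gene. The peak at chrX:1968992-1969371 had a signal of 79.9 (rank 1417), was listed in replicate 1 at 56.1 and was not in the conservative list. Its replicate 2 candidate, of 24.7, had rank 10622 of 121684. The peak at chrX:1984152-1984531 had 80.1 (rank 1410) and was listed in replicate 1 only, at 45.9. In the ranked lists it stood about as high in both replicates, at rank 1618 of 93400 in replicate 1 and, as a candidate of 39.4, at rank 1720 of 121684 in replicate 2. This peak lay 7958 bp upstream of the downstream start, the closest of the 6 to that start. In all, replicate 1 listed 5 *Hr4* peaks and replicate 2 listed 3.

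The last of the 7, at chrX:2009456-2009835, had the lowest signal, 63.8 (rank 1788), and lay 1690 bp past the end of *Hr4*. Its summit was 282 bp from the start of *PIG-K*, which encodes a subunit of the complex that attaches GPI anchors, and within 500 bp of the start of lncRNA:CR45478. It was in neither replicate list, with candidates of 33.9 and 36.1, but was in the conservative list. By position it is a promoter peak of *PIG-K*, and without it *Hr4* had 6. The gaps between neighbouring summits of the 7 ran from 1.17 kb to 25.3 kb over a stretch of 61.9 kb.

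**Figure D1:**
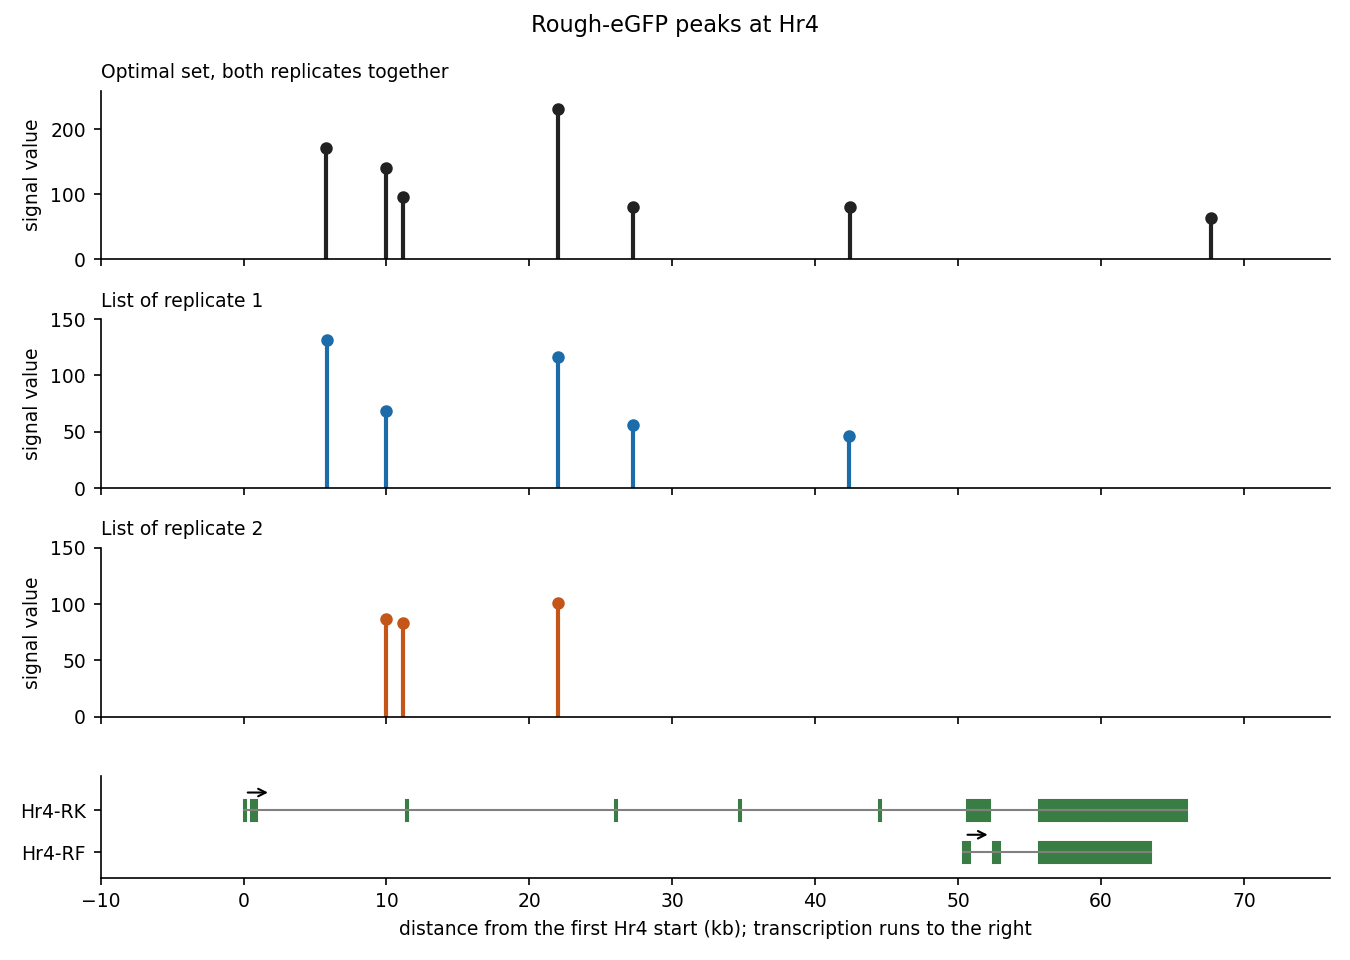
Peaks at *Hr4* in the optimal list (top) and in the lists of replicates 1 and 2, by distance of the summit from the upstream start in kb (horizontal axis) and signal value (vertical axis, a separate scale for the top list), above the exons of 2 transcripts (green). Both replicate lists hold the peaks at 9.99 kb and 22.0 kb, and the one at 67.7 kb, past the end of the gene, is in neither.

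*EcR*, which encodes the hormone-binding receptor, had 1 peak. The gene lies at 2R:6087873-6169087 on the minus strand and has 4 annotated starts. The peak at 2R:6151094-6151473 had a signal of 128 (rank 659) and a q value of 0.0390. Its summit was in an intron, 5845 bp downstream of the start of transcripts EcR-RD and EcR-RE and 1392 bp from a tRNA gene, tRNA:Asn-GTT-1-1. The replicates differed: replicate 2 listed it at 89.7, and replicate 1 held a candidate of 36.2 that was ranked 2527 of 93400. The nearest peak beyond the 10 kb limit was 10.96 kb from the gene, with a signal of 12.8.

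*usp*, which encodes the partner of EcR, had the strongest of the 17 peaks, although not at its own start. The peak at chrX:2050162-2050399 had a signal of 338, above 94.9% of the list, and was listed in both replicates at 138 and 201. It lay 7968 bp upstream of *usp* (chrX:2038798-2042311, minus strand), within the body of *CG4313* and 159 bp from the start of *moody*, which encodes a receptor needed for the blood-brain barrier formed by glia. *moody*, not *usp*, has the nearest start. At *usp* itself there was a candidate at chrX:2041317-2041696 with a signal of 31.9, rank 28965 of 144610 in the ranked list over both replicates.

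Among the early response genes, *Eip74EF*, an ETS-domain transcription factor gene, had 3 peaks and all were weak. The gene is on 3L, minus strand, at 17558672-17619325, with 3 starts. The peaks at chr3L:17566959-17567338 (signal 74.0, rank 1558) and chr3L:17567163-17567542 (signal 8.20, rank 1929) overlap each other. A single replicate 2 peak, at 28.2, overlaps both, and replicate 1 had no candidate there. The peak at chr3L:17578678-17579057 had 64.9 (rank 1767), 2242 bp upstream of the start of Eip74EF-RB, and was in neither replicate list, with candidates of 30.1 and 38.3. None of the 3 was in the conservative list, and each fell below the lower quartile of the optimal list, 77.3.

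*Eip75B*, an early gene that encodes a haem-binding nuclear receptor, had 2 peaks in a body of 114 kb with 7 starts (chr3L:17950953-18064696, minus strand). The peak at chr3L:18009038-18009417 had 103 (rank 963) and was in the conservative list, yet was in neither replicate list, where its candidates stood at 58.8 and 32.5. The peak at chr3L:18005103-18005482 had 69.0 (rank 1685) and was listed in replicate 1 at 52.7, with a candidate of 26.9 in replicate 2. Both were intronic, 9407 and 5472 bp upstream of the start of transcript Eip75B-RC.

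At that start the lists differed. Replicate 1 listed a peak at chr3L:17999575-17999930 with a signal of 71.3, 68 bp from the Eip75B-RC start, and a second, overlapping one of 4.05. Replicate 2 had a candidate of 26.3 there, and the ranked list over both replicates had one of 95.0 that was not kept in the optimal list. A further intronic peak, at chr3L:18019616-18019995 with 60.2, was in the conservative list alone. *Eip78C*, a related receptor gene of the ecdysone response (chr3L:21226609-21266503), had no peak in any of the 4 thresholded lists. Its strongest candidate in the ranking over both replicates had a signal of 47.3, rank 7058, and the nearest peak was 19.4 kb away.

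Among the other receptors, *ftz-f1*, which encodes a competence factor for later ecdysone responses and a partner of Fushi tarazu in the embryo, had 1 peak that both replicates listed. The gene lies at chr3L:18750607-18801309 on the minus strand. The peak, at chr3L:18769326-18769705, had 132 (rank 621) and lay in an intron 3772 bp upstream of the start of transcripts ftz-f1-RC and ftz-f1-RD. Replicate 1 listed it at 69.8, and replicate 2 at 56.7 together with a second, overlapping peak of 16.1.

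*Hnf4*, whose product controls lipid breakdown and glucose handling in the fly, had 2 peaks near a body of 22.4 kb (chr2L:8687226-8709611, minus strand, 5 starts). The peak at chr2L:8691393-8691772, with 89.2 (rank 1226), was the only one of the 17 within 500 bp of a member's own start. It lay 374 bp upstream of the start of Hnf4-RB and was listed in both replicates at 53.7 and 51.5. The other, at chr2L:8717747-8718126 with 100.2 (rank 1014), lay 8326 bp upstream of *Hnf4* in an intron of *raw*, a gene needed for dorsal closure, whose start was nearer. Replicate 1 held it as a candidate of 50.8, and replicate 2 had none.

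*Hr38* and *Hr39* had no peak in any thresholded list. *Hr38* (chr2L:20683462-20714588), the NR4A homologue that can pair with Ultraspiracle, had 72 candidates within 10 kb, the strongest at 52.4, rank 4675. *Hr39* (chr2L:21237250-21259675), a relative of *ftz-f1*, had 13, the strongest at 58.2, rank 3214, outside its body in a promoter. The nearest listed peaks were 27.1 kb from *Hr38* and 22.1 kb from *Hr39*.

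**Figure D2:**
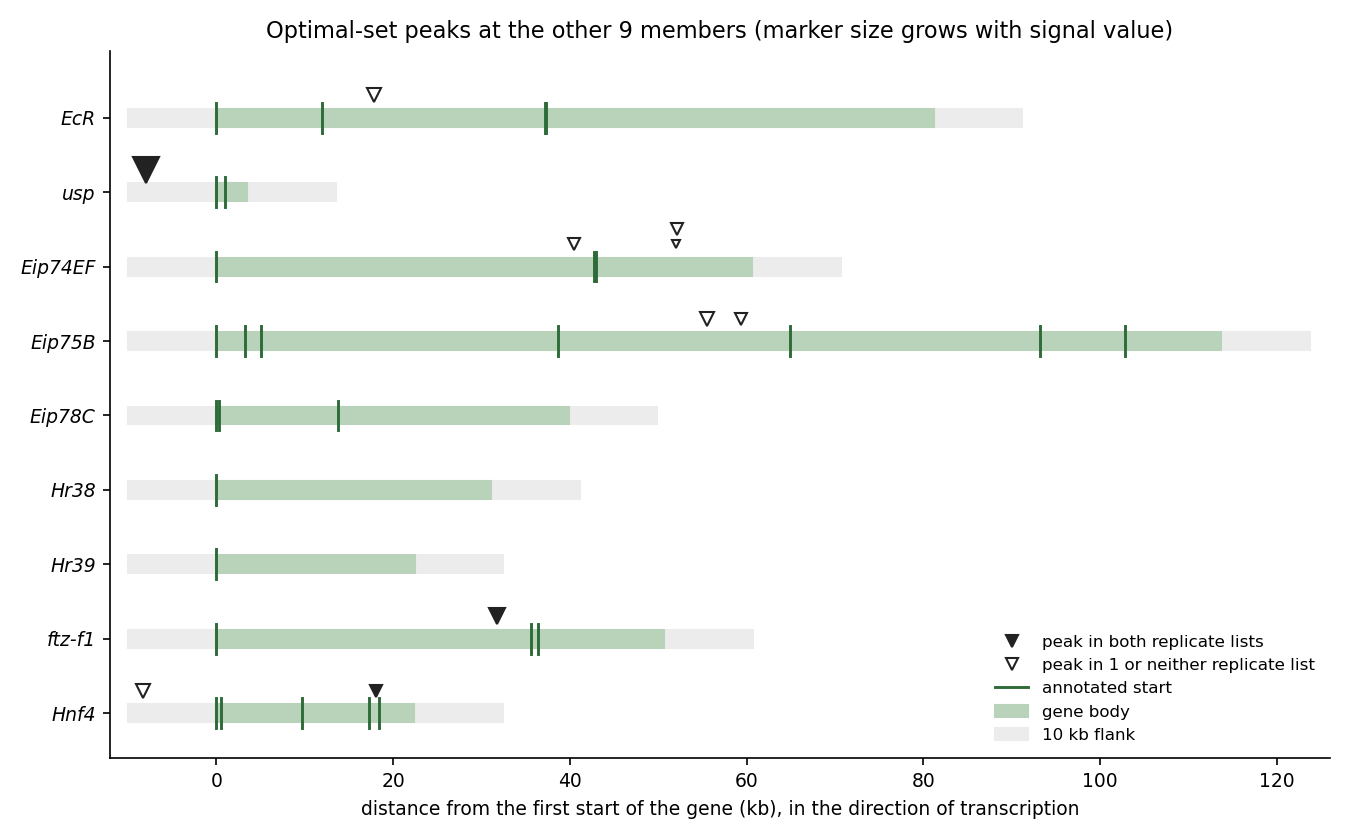
Optimal-list peaks (triangles, larger with a higher signal value) at the other 9 genes, by distance of the summit in kb from the first start in the direction of transcription, with gene bodies (green), 10 kb flanks (grey) and annotated starts (bars). Filled triangles, listed in both replicates, are at *usp*, *ftz-f1* and the downstream *Hnf4* peak, and 3 genes have no triangle.

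Replicate presence over the 17 peaks was as follows. Both replicate lists held 5, at *Hr4*, *usp*, *ftz-f1* and *Hnf4*, or 29.4%, beside 39.3% (773) of all 1969 peaks. A further 8 overlapped a peak of 1 replicate list and 4 of neither, and each replicate's list overlapped 9 of the 17. The overlapping *Eip74EF* peaks count separately here, although a single replicate 2 peak overlaps both. With overlapping peaks merged, the member peaks numbered 16. The conservative list held 11 of the 17. For presence in 1 replicate list, in neither and in the conservative list, shares over all 1969 peaks were not computed. Those counts describe the member peaks only. A q value above 0.05 was found for 11 of the 17, and for 53.4% of the whole list. The thresholded lists are based, per the labels of the deposited files, on the irreproducible discovery rate (IDR), a measure of how well peak ranks repeat. The median signal of the member peaks was 95.8, with a range of 8.20 to 338, beside a median of 102 for the list; 7 of 17 were at or above that median.

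**Figure D3:**
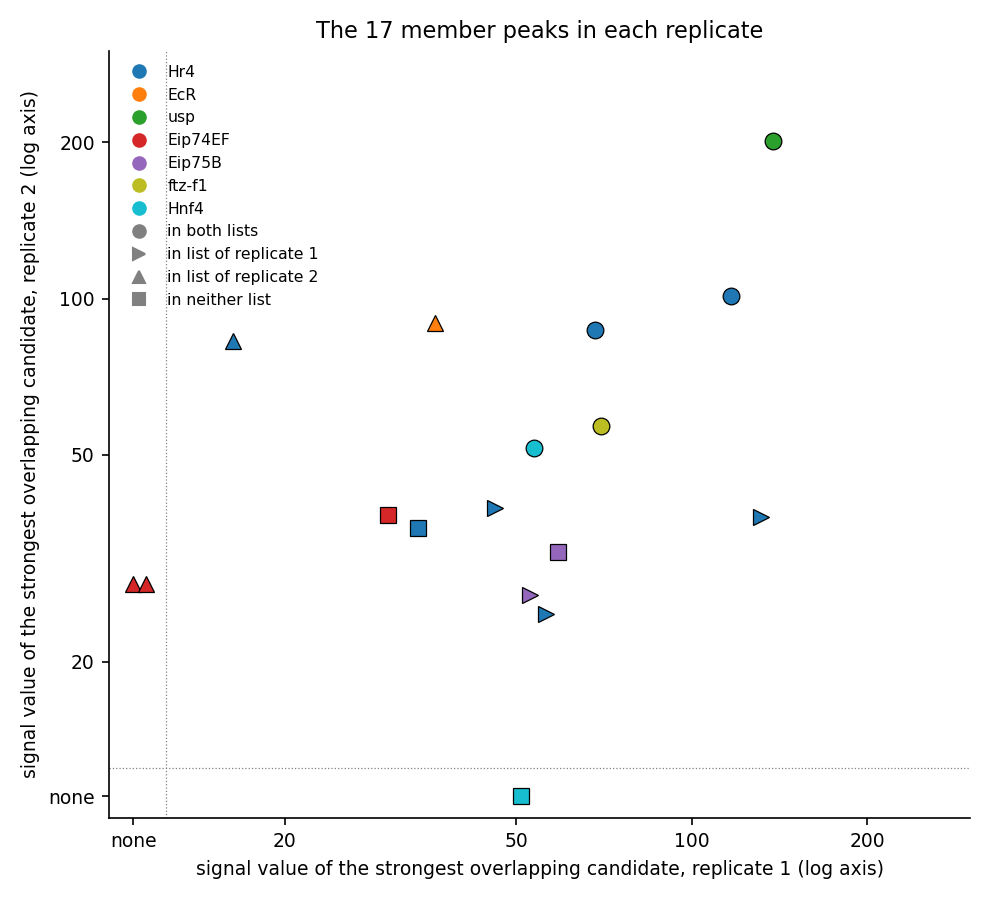
Signal value of the strongest overlapping candidate in replicate 1 (horizontal, log axis) and replicate 2 (vertical, log axis) for each of the 17 peaks, coloured by gene, with marker shapes for the lists that hold it and "none" where no candidate overlaps. The 5 circles, listed in both replicates, have at least 51.5 in each, and the *usp* peak is highest in both at 138 and 201.

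By location, 14 of the 17 summits were in introns and 3 within 500 bp of a start, beside 34.7% and 46.2% of all 1883 peaks on the named arms. Of the 10 genes, 9 are 20 kb or longer. Among summits inside the bodies of genes of that length, a count that also leaves out the flanks and so 2 of the 3 member promoter peaks, 13 of 14 member peaks were intronic and 1 was at a promoter, beside 76.2% and 19.6% of 546 peaks. Of those, 31.1% were in both replicate lists, and of the 14 member peaks 4 were. None (0) of the 17 overlapped an annotated transposable element, a share that was not computed for the whole list. The nearest protein-coding start was the member's own for 14 of 17, the exceptions being the peaks at *moody*, *PIG-K* and *raw*. Nearness to a member's start was part of the assignment rule, so this count only describes the peaks.

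All 17 member peaks had an IDR of at most 0.01, a score of at least 2 as −log10, and no member candidate outside the optimal list reached that score. Over the whole ranking 2113 candidates reached it and 1969 peaks were listed, so the score alone does not define the list. The member peaks just above it were the *Eip74EF* peak upstream of Eip74EF-RB, at 2.05 with a signal of 64.9, and the *Hr4* peak at *PIG-K*, at 2.14 with 63.8. Just below it were a *ftz-f1* candidate at 1.86 with 69.3 and the candidate at the Eip75B-RC start, at 1.76 with 95.0. The order by signal and the order by IDR therefore did not coincide for the weaker peaks. Not every peak past the limit overlapped a candidate in the separate ranked list of each replicate. The overlapping *Eip74EF* peaks scored 2.565 each with no overlapping candidate in the replicate 1 ranking. The *Hnf4* peak in *raw* scored 2.23 with none in the replicate 2 ranking. The single-replicate values within the ranked lists over both replicates were not used. What each replicate gave to these scores was therefore not checked.

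The ranked lists, which also keep candidates with far lower scores, covered the member bodies unevenly. Genes of 20 kb or longer had a median of 112 candidate summits per 100 kb of body in the ranking over both replicates, with quartiles of 85.7 and 131. *Hr4* had 141, *Eip74EF* 124, *Hr38* 122, *Eip78C* 103, *Hnf4* 103 and *Eip75B* 96.7. The short gene *usp* had 7 candidates in 3.51 kb. *ftz-f1*, at 57.2, and *EcR*, at 32.0, were below the lower quartile, and *EcR* was also below the tenth percentile of 53.1. *Hr39* had none in its body in this ranking or in the replicate 2 ranking, whereas replicate 1 had 8. Of the 1020 long genes, 18 (1.76%) had no candidate. Whether reads can be placed as well in these bodies as elsewhere was not tested.

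**Figure D4:**
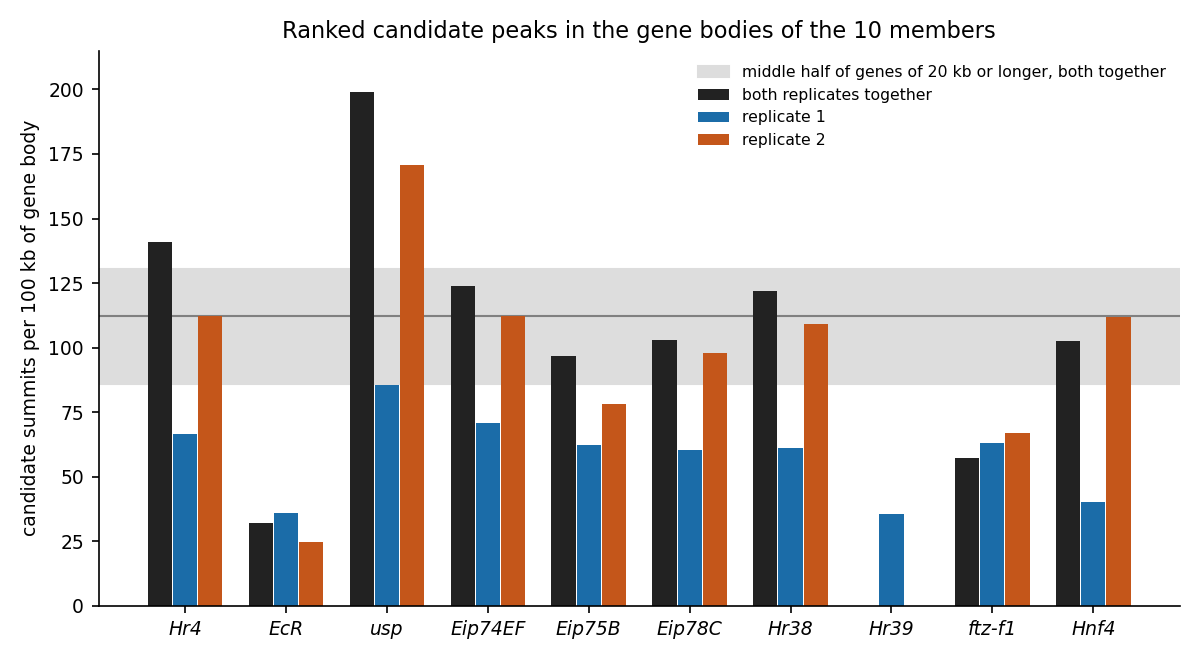
Candidate peak summits per 100 kb of gene body (vertical axis) for the 10 genes, with both replicates ranked together (black), replicate 1 (blue) and replicate 2 (orange). The grey band spans the quartiles, 85.7 to 131, and the line the median, 112, of genes of 20 kb or longer; *Hr39* has a bar for replicate 1 only.

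Other genes of the pathway, from lists written with earlier results of these data known, carried peaks by the same rule as follows, beside the 36.0% of all genes. Of 12 other nuclear receptor genes, 5 (41.7%) had a peak. *Hr3*, which encodes an early-late receptor of the prepupal cascade, had 2 peaks, the stronger with a signal of 350.1, rank 96, in its own intron and in both replicate lists. *Hr96*, *ERR*, *Hr51* and *Hr83* had top signals of 129, 119, 79.2 and 77.3, each nearest to another gene's start.

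Of 9 matched genes for ecdysone synthesis, uptake and breakdown, 4 (44.4%) had a peak. They were the biosynthetic P450 genes *spo* (128), *dib* (131) and *sad* (94.2) and the dehydrogenase gene *sro* (74.7), and none (0) of the peaks was nearest to the start of the listed gene. Of 10 cofactor and partner genes, 5 also had one. *Smr*, the corepressor of EcR, had 3 with a top signal of 519, rank 33, at a promoter nearest to *CG4004*. *gce*, a juvenile hormone receptor gene, had 2, the stronger 255 at its own promoter and in both replicate lists, and *alien* (213), *tai* (86.7) and *Ncoa6* (70.6) had the others. The top peaks of *alien* and *tai* lay outside these genes and were nearest to *CG13101* and *CG9586*.

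Of 16 other response genes, 9 (56.3%) had a peak. *ImpL2*, an inhibitor of insulin signalling, had 4 with a top signal of 216 in its body, and none (0) was nearest to its own start. *Eip63E*, a cyclin-dependent kinase gene, had 4 with a top signal of 146 that also counts for the neighbouring *ImpE2*. *br*, the early gene for the Broad zinc finger factors, had 2 with a top signal of 119.5 (rank 745), in its body but nearest to the start of *Mur2B*. *Ldh* (169), *crol* (151.5), *Eip63F-1* (91.8), *Cth* (80.9) and *ImpE3* (78.1) had the rest. The top peaks of *crol*, *Cth* and *ImpE3* lay outside these genes and were nearest to *CycY*, *Sec6* and *CG2747*. Over the 4 lists, 23 of 47 matched genes (48.9%) had a peak, 13 had one in both replicate lists, and 7 had a peak nearest to their own start. The share over all genes was computed for genes with a peak only, not for the counts of 13 and 7.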

How the data were processed

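The data are 8 peak lists on dm6, 4 thresholded and 4 ranked, for replicate 1, replicate 2 and both together (optimal and conservative). Per the labels, the samples are 2 biological replicates of 1 group. For the aligner and the peak caller, names were not given in the sources used here. Each deposited signal value is the authors' own. The deposited q value is −log10 q, a log10 scale that dips slightly below 0 in the lists over both replicates. The ranked lists carry a deposited score, the −log10 of the global IDR. A further 16 columns of single-replicate values, in ranked lists that combine the replicates, matched no sample and were left unused. Depth is unknown.

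Peaks were placed by summit on Ensembl release 115 (BDGP6 6.54) with Python 3.11.15, numpy 2.4.6, pandas 2.3.3 and matplotlib 3.10.9, and sequence came from the RefSeq Release 6 assembly. Locations were taken in the order promoter (500 bp), exon classes (UTR, coding, other), intron, intergenic. Replicate presence meant 1 bp of overlap. Candidates are all peaks of a ranked list. The assignment was checked on planted summits. Of 300 placed inside the window, 300 were assigned to their gene. Of 100 placed outside it, 100 were counted correct, meaning that the gene was left unassigned or had the nearest start. This checks only that the rule was applied as written.

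The members and the pathway lists were chosen with earlier results of these data known, so no test was run. All 10 members with every optimal-list peak were named, with the nearest gene where it was another, and every pathway gene with a peak. Of 49 pathway symbols 47 matched, 4 by synonym; *phm* and *EcI* were not matched. Alternatives tried were the conservative list, each replicate list alone, stronger peaks, other windows, promoter definitions and overlap rules, merging, and, chosen after seeing the data, q of at most 0.05.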

Additional observations from a re-analysis of the deposited data

How the results depend on the processing

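Against 17 member peaks in the optimal list, each replicate list alone gave 9 to 11, peaks at or above the median signal numbered 7, and peaks with q of at most 0.05, an alternative chosen after seeing the data, numbered 6. That last setting left 4 of the 7 genes with a peak. With a window of 2 kb, summits in the gene body only or the nearest start only, 6 genes had a peak, and *usp* had 0. With peaks at or above the median signal, 5 genes had one. Of 3 promoter peaks, only that at *moody* was left with the median signal or with q of at most 0.05. Only the *Hnf4* promoter peak was left with summits in the gene body only or with the nearest start only. The same *Hnf4* peak was left when only the member's own starts counted. The number in both replicate lists was 4 to 6 under every alternative run, against 5. *Hr4* had 3 to 7 peaks over the alternatives, with 3 in the list of replicate 2, with the median signal and with q of at most 0.05; *Eip78C*, *Hr38* and *Hr39* had 0 throughout. The causes were not tested. No paired analysis was possible because there is 1 group. With 2 replicates, no read totals and no control analysed, neither counting error nor local background can be given, and a gene without a listed peak is not shown to be unbound.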
